A study of Mus musculus with 4 samples.

Results

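The genes described here make cholesterol, regulate its synthesis and uptake, carry it through the cell, store it and export it. They are 28 genes chosen by name out of the 52636 rows of a table of read counts, each symbol stands for 1 row, and all 28 passed the filter on low counts that left 18998 genes for testing. The cells were C2C12, an established line of mouse muscle precursors able to form myotubes, held for up to 8 days in a medium that favours fat formation (adipogenic medium). Of the 4 libraries of polyadenylated RNA, 2 came from control cells in that medium and 2 from cells given 50 µM sesaminol (a sesame lignan) in it. The labels do not say whether replicates are separate cultures of this single line, so the p-values reflect how far these libraries lay apart, which may be technical.

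Cholesterol is built from acetyl-CoA through mevalonate, the prenyl diphosphates, squalene and lanosterol, and then by a series of late sterol enzymes. When sterol in the membrane of the endoplasmic reticulum is low, the escort protein SCAP carries SREBP-2, the product of Srebf2, to the Golgi, where it is cut to release a transcription factor that acts on most genes of the pathway. The INSIG proteins hold SCAP back when sterol is plentiful. Oxysterols, which build up when sterol is plentiful, activate the LXR nuclear receptors, and these raise the exporters ABCA1 and ABCG1 and the ubiquitin ligase MYLIP (also called IDOL), which removes lipoprotein receptors from the cell surface. In muscle cells the pathway also supplies prenyl groups and ubiquinone.

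Total counts ran from 10283135 to 24362899 per library. Sesaminol replicate 2 stood apart from the other libraries, with 1.44% of its counts in mitochondrial genes against 2.95% to 3.36% in the others. Values without it or without sesaminol replicate 1 are given below where they change a call or direction. They cover the 28 genes and, of each list, the genes lowest in adjusted p (at most 3). Where they change the size alone, they are given for some genes only. No such values are given for the cell type markers, the overlapping neighbours or Nceh1. The muscle markers Myod1, Myf5, Des, Cdh15, Myog, Myh3, Actn2 and Ckm, which check the label of the line, were all detected. Their summed level was 8505 and 8852 CPM (counts scaled to the library total with TMM factors) in the controls and 5013 and 3657 CPM with sesaminol. By the test used below 5 of the 8 were lower, where 3.24% of all tested genes fell. Des, Cdh15 and Myf5 did not pass. Myf5 had 32.6 and 32.9 CPM in the controls and 50.4 and 26.3 CPM with sesaminol. Summed over 6 adipocyte markers the level was 8.94 and 6.65 CPM in the controls and 4.69 and 3.95 CPM with sesaminol. The 3 of them that were tested did not pass. Over 3 endothelial markers the sum was 3.08 to 5.22 CPM. Over 4 macrophage markers it was 27.9 and 22.4 CPM in the controls and 47.3 and 45.3 CPM with sesaminol. Of the 4 macrophage markers Cd14 rose, from 10.3 and 8.33 CPM in the controls to 31.2 and 25.4 CPM with sesaminol, and Csf1r, Ptprc and Adgre1 had overlapping groups and did not pass. Of all these markers, Lep was at 0 counts in control replicate 2 and sesaminol replicate 1. The part of these shifts in the results below was not tested, and in bulk RNA fewer cells of a type and less RNA per cell cannot be told apart.

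Of the 19 genes of cholesterol synthesis enzymes, 12 rose with sesaminol, and they lay in the mevalonate, squalene and late sterol steps. Summed over the 19, the level was 2152 and 1878 CPM in control replicates 1 and 2 and 5261 and 3367 CPM in sesaminol replicates 1 and 2. Of the 28 genes, 14 rose and 0 fell (quasi-likelihood test of edgeR, with p adjusted by Benjamini-Hochberg over all genes tested, threshold 0.05), where 2.72% of all tested genes rose and 3.24% fell. The 14 that rose were the enzymes Acat2, Hmgcs1, Pmvk, Mvd, Idi1, Sqle, Lss, Cyp51, Tm7sf2, Msmo1, Hsd17b7 and Sc5d, the SCAP anchor Insig1 and the sterol carrier Stard4. The median log2 fold change over the 28 genes was 0.98, and over all tested genes 0.022. Both sesaminol libraries lay above both controls for 22 of the 28 genes and below both for 2, against 24.2% and 22.8% of all tested genes. The 3 genes with a negative fold change were Mylip, Abca1 and Abcg1, the receptor ligase and the exporters.

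**Figure D1:**
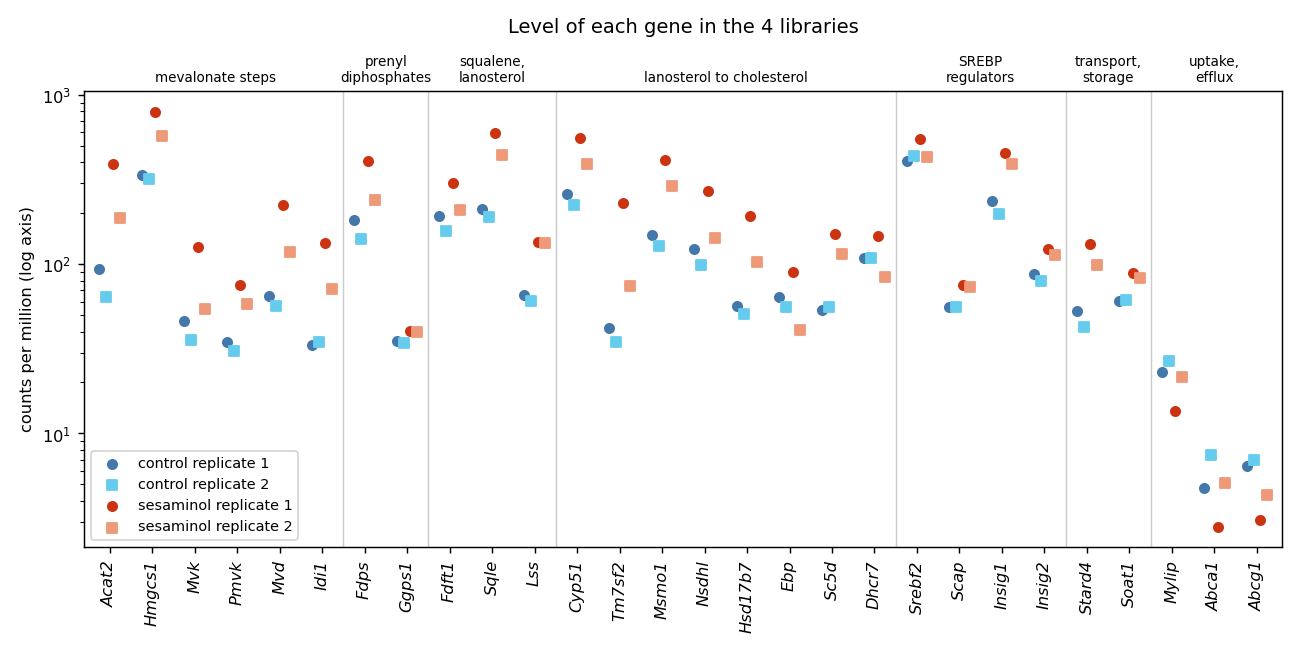
CPM (log axis) of the 28 genes in the 2 control (blue) and 2 sesaminol libraries (red), in pathway order. For 22 genes both red points lie above both blue points, and for Mylip and Abcg1 both lie below.

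The number of genes called changed with the library left out. Without control replicate 1 the test called 8 of the 28 genes higher and without control replicate 2 it called 4, where 0.786% and 0.847% of all tested genes rose. Without sesaminol replicate 1 it called 15 higher and 1 lower, and without sesaminol replicate 2 it called 22 higher and 3 lower. The shares of all tested genes in these last fits were 9.36% higher and 13.3% lower without sesaminol replicate 1, and 8.06% higher and 7.04% lower without sesaminol replicate 2. A library left alone in its group is assumed to vary like the other group. Where a sesaminol library was left out, here and below, the adjusted p thus leaves out the spread between the sesaminol libraries. Acat2, Idi1, Tm7sf2 and Sc5d were called higher in all 4 fits that left out a library. Hmgcs1, Pmvk, Sqle, Lss, Cyp51 and Insig1 were not called when either control was left out (edgeR adjusted p from 0.0517 for Pmvk to 0.583 for Cyp51). Their fold changes stayed close to those with all 4 libraries, with standard errors that were larger: for Hmgcs1 the log2 fold change was 1.10 ± 0.46 and 1.02 ± 0.47 without control replicates 1 and 2. Mvd, Msmo1, Hsd17b7 and Stard4 were not called when control replicate 2 was left out (edgeR adjusted p = 0.0580, 0.143, 0.0518 and 0.0805).

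The promoters of these genes are shown because 14 of the 28 genes rose together. RefSeq promoters (GRCm38.p6) were matched for 23 of the 28 genes, and the missing ones are Fdps, Fdft1, Stard4, Abcg1 and Sqle. The 250 bases before each start were searched on both strands for the sterol response element of SREBP (TCACNCCAC) and its core (CACNCCAC, which lies inside the longer form), the NF-Y box CCAAT, the Sp1 box GGGCGG and the LXR element DR4 (AGGTCA, then NNNN, then AGGTCA again). NF-Y and Sp1 are general factors known to act beside SREBP. Below are the bases before the start of 4 genes that rose and of the exporter gene Abca1, with the sterol element, its core and the NF-Y box in capitals on whichever strand they were found (ATTGG is CCAAT read on the other strand). Hmgcs1 lies on the plus strand and the others on the minus strand, and the Acat2 stretch stops 22 bases short of the RefSeq start, where an annotated exon begins. For 3 of these 5 genes, bases after the RefSeq start were found in an annotated transcript of the gene. RefSeq starts can differ from the gene positions printed below, as for Hmgcs1.
Hmgcs1, chr13:119690101-119690350: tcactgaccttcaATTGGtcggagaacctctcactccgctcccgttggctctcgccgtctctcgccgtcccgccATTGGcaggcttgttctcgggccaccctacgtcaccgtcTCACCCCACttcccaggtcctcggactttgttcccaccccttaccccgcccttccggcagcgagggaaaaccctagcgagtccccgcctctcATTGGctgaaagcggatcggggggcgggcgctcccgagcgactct
Acat2, chr17:12960748-12960975: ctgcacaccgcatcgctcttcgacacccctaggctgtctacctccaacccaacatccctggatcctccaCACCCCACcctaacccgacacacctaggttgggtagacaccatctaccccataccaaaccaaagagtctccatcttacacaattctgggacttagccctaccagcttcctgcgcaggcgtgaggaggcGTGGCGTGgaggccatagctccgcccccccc
Mvd, chr8:122443423-122443672: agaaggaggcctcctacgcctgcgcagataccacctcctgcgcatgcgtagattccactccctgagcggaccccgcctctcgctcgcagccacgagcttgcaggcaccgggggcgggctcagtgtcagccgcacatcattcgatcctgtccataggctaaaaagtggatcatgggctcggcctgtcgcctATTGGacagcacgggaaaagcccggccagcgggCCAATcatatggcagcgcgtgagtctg
Sc5d, chr9:42264301-42264550: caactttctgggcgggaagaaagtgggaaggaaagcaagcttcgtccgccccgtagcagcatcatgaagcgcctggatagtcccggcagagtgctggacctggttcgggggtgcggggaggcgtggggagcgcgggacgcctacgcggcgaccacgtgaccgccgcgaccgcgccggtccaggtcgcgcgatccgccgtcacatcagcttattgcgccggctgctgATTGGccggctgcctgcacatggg
Abca1, chr4:53159896-53160145: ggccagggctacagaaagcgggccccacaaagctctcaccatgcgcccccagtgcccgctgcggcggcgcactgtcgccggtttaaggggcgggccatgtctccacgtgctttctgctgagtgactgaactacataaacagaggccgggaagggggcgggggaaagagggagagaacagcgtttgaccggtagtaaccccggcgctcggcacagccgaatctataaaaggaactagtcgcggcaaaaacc

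The NF-Y box was found before the start of 20 of the 23 genes (87.0%), against 37.5% of all genes in the promoter table and 39.8% of the tested genes that matched it. It was present for 11 of 12 matched genes that rose (91.7%) and for 9 of 11 that were not called (81.8%). The 3 genes without it were Acat2, Scap and Abca1. Mvk held 5 copies, the Hmgcs1 stretch printed above 3 and Mvd 2. The Sp1 box was also found in 20 of the 23 genes, against 35.4% of all genes in the table and 58.8% of the tested genes. The full sterol element was found for Hmgcs1 alone, 137 bases before its RefSeq start (1.22% of all genes hold it). The core was found for Hmgcs1, Acat2 and Insig1 (6.05% of all genes). The core lay 181 and 53 bases before the start of Acat2. The LXR element in this exact form was found before no listed start of the 23 genes and before 4 of all 27025 genes. It was found for 0 of the 12104 tested genes that matched the promoter table, so its absence here says nothing about LXR binding. These matches describe letters only, a factor may bind other letters, and the promoters of the 23 genes were richer in G and C (median 61.6%) than those of the tested genes (59.2%) and of all genes in the table (52.4%).

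**Figure D2:**
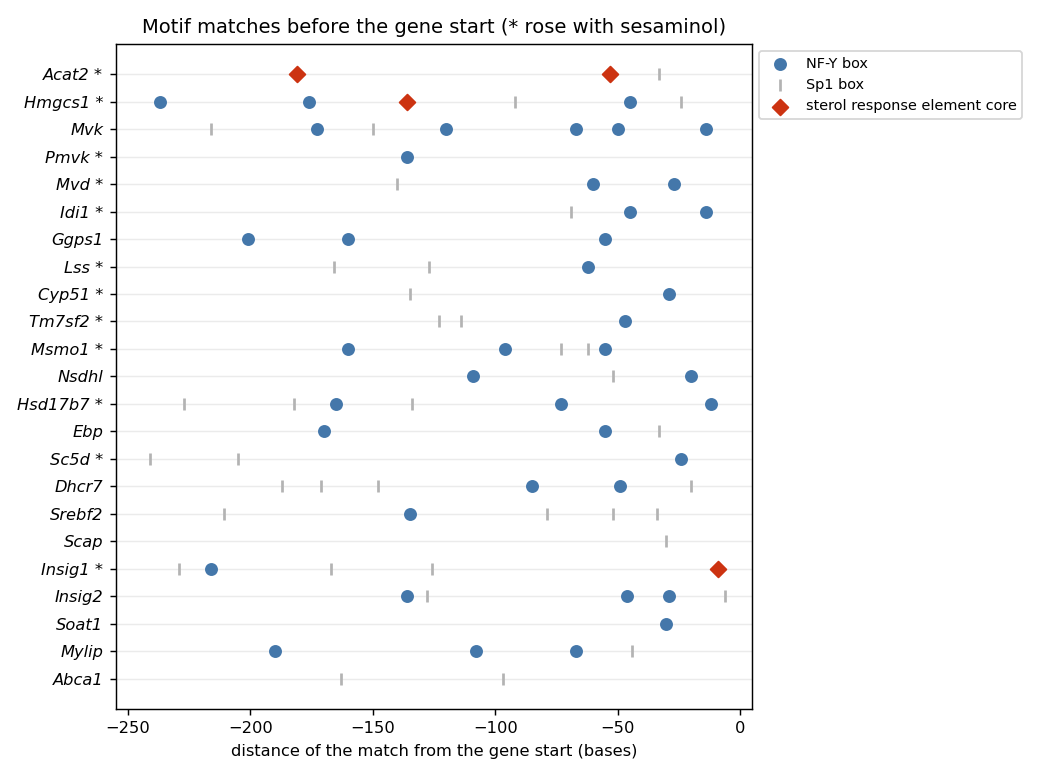
Position of motif matches, in bases before the gene start, for the 23 genes with a RefSeq promoter (all listed starts of a gene drawn on its line). NF-Y boxes (blue) occur in 20 genes, whether or not they rose (asterisk), and the sterol element core (red) in Hmgcs1, Acat2 and Insig1.

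The mevalonate steps rose in 5 of 6 genes, with a median log2 fold change of 1.32. Acat2, which encodes the cytosolic thiolase that joins acetyl-CoA units, stood at 93.7 and 63.8 CPM in control replicates 1 and 2 and at 390 and 188 CPM in sesaminol replicates 1 and 2. The lower sesaminol library was 2.01 times the higher control, and the rise was 1.88 ± 0.34 (SE) in log2 terms (edgeR adjusted p = 0.0131), or 1.22 without sesaminol replicate 1. Hmgcs1 (ENSMUSG00000093930, chromosome 13, 119690379 to 119708260, GRCm38) encodes HMG-CoA synthase, which makes the precursor of mevalonate. Its levels were 337 and 317 CPM in the controls and 795 and 575 CPM with sesaminol, a rise of 1.07 ± 0.23 in log2 terms (edgeR adjusted p = 0.0269). The groups did not overlap for either gene. In the 4 fits that left out a library the log2 fold change of Hmgcs1 lay between 0.77 and 1.29. It shares 557 exon bases with AC123738.2 on the opposite strand, whose count was 32.7% of its own.

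Idi1, the isomerase that makes dimethylallyl diphosphate, had 33.2 and 34.6 CPM in the controls and 134 and 71.8 CPM with sesaminol. The controls differed little and the sesaminol libraries 1.86-fold, and the rise was 3.02-fold (edgeR adjusted p = 0.0102). Mvd, the decarboxylase that makes isopentenyl diphosphate, had 65.1 and 56.4 CPM in the controls and 223 and 118 CPM with sesaminol (2.80-fold, edgeR adjusted p = 0.0159). Pmvk, phosphomevalonate kinase, had 34.7 and 30.5 CPM in the controls and 74.9 and 58.4 CPM with sesaminol (2.04-fold, edgeR adjusted p = 0.0134). All 3 had both sesaminol libraries above both controls, and without sesaminol replicate 1 the log2 fold change of Idi1 was 1.04 and that of Mvd 0.91, both still called. Mvk, mevalonate kinase, which acts just before Pmvk, had 46.2 and 35.8 CPM in the controls and 127 and 54.7 CPM with sesaminol, and did not pass (log2 fold change 1.14 ± 0.34, edgeR adjusted p = 0.0978). Its sesaminol libraries differed 2.32-fold, and its log2 fold change was 0.38 without sesaminol replicate 1 and 1.64, called higher, without sesaminol replicate 2.

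Neither prenyl diphosphate synthase was called with all 4 libraries. Fdps, which makes farnesyl diphosphate, the last intermediate shared with protein prenylation, had 183 and 140 CPM in the controls and 404 and 238 CPM with sesaminol (log2 fold change 0.99 ± 0.27, edgeR adjusted p = 0.0691). Its groups did not overlap, but Gm43738, a gene annotated on the same strand with 1124 shared exon bases, held 102% of its count, so reads of the pair cannot be told apart. Fdps was called higher both without sesaminol replicate 1 (log2 fold change 0.52) and without sesaminol replicate 2 (1.33). Ggps1, which makes geranylgeranyl diphosphate on the branch that leaves the sterol path, had 35.0 and 34.1 CPM in the controls and 40.4 and 39.6 CPM with sesaminol (log2 fold change 0.21 ± 0.16, edgeR adjusted p = 0.581). It shares 257 exon bases with Arid4b on the opposite strand, whose count was 110% of its own and which did not pass.

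Among the enzymes that make squalene and lanosterol, Sqle and Lss rose. Sqle (ENSMUSG00000022351, chromosome 15, 59315077 to 59331192, GRCm38), squalene epoxidase, a rate-limiting enzyme of the sterol branch, had 212 and 190.5 CPM in the controls and 594 and 439 CPM with sesaminol. The lower sesaminol library was 2.07 times the higher control. Lss, lanosterol synthase, which closes the sterol rings, had 65.7 and 60.2 CPM in the controls and 135 and 133 CPM with sesaminol (2.13-fold, edgeR adjusted p = 0.00574). It was the synthesis gene whose sesaminol libraries lay closest together, 1.01-fold apart, and it shares 381 exon bases with 4930483K19Rik on the opposite strand, whose count was 78.9% of its own. Fdft1, squalene synthase, the first enzyme committed to sterols, had 191 and 157 CPM in the controls and 302 and 209 CPM with sesaminol. It did not pass (log2 fold change 0.55 ± 0.22, edgeR adjusted p = 0.223). Its log2 fold change was 0.23 without sesaminol replicate 1 and 0.80, called higher, without sesaminol replicate 2. Fdft1 shares 774 exon bases with the more abundant lysosomal protease gene Ctsb on the opposite strand, which rose 1.94-fold.

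Of 8 late sterol enzymes, 5 rose, with a median log2 fold change of 1.12 over the 8. Cyp51, lanosterol demethylase, had 259 and 225 CPM in the controls and 553 and 391 CPM with sesaminol (1.95-fold, edgeR adjusted p = 0.0395). Msmo1, which oxidises the methyl groups at carbon 4 of the sterol, had 148 and 127 CPM in the controls and 410 and 291 CPM with sesaminol (2.55-fold, edgeR adjusted p = 0.00791). Sc5d, the C5 desaturase, had 53.8 and 56.1 CPM in the controls and 150 and 115 CPM with sesaminol (2.41-fold, edgeR adjusted p = 0.00528), and was called whichever library was left out. Hsd17b7, the ketosterol reductase of the demethylation complex, had 56.6 and 50.7 CPM in the controls and 193 and 103 CPM with sesaminol (2.75-fold, edgeR adjusted p = 0.0156). Without sesaminol replicate 1 the log2 fold change of Hsd17b7 went from 1.46 to 0.90, still called. In each of these genes sesaminol replicate 1 was the highest library and sesaminol replicate 2 the next.

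Tm7sf2, a sterol C14 reductase, had the highest fold change of the 28 genes and also the widest spread. It had 41.9 and 34.8 CPM in the controls and 228 and 74.2 CPM with sesaminol, a 3.08-fold difference between the sesaminol libraries. The log2 fold change was 1.98 ± 0.43 (edgeR adjusted p = 0.0300), and it was 0.91 without sesaminol replicate 1 and 2.58 without sesaminol replicate 2. DESeq2 and limma-voom did not call it (adjusted p = 0.0893 and 0.0510). Its neighbour Vps51, which shares 532 exon bases on the same strand and had 43.0% of its count, did not pass (log2 fold change -0.22 ± 0.20, edgeR adjusted p = 0.673). The deposited table names the row Tm7sf2 by symbol and gene identifier but gives it the description of Vps51, which has a row of its own.

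Nsdhl, Ebp and Dhcr7 did not pass with all 4 libraries. Nsdhl, the decarboxylating sterol dehydrogenase, had 123 and 99.5 CPM in the controls and 271 and 143 CPM with sesaminol (log2 fold change 0.90 ± 0.28, edgeR adjusted p = 0.121). Its log2 fold change was 0.32 without sesaminol replicate 1 and 1.29, called higher, without sesaminol replicate 2. Ebp, the sterol isomerase, had 64.1 and 55.5 CPM in the controls and 90.4 and 40.9 CPM with sesaminol. Dhcr7, which reduces 7-dehydrocholesterol to cholesterol in the final step of one branch, had 109 and 109 CPM in the controls and 146 and 84.3 CPM with sesaminol. In the last pair of genes 1 sesaminol library lay above the controls and the other below. Without sesaminol replicate 1 the log2 fold change of Ebp was -0.59 (edgeR adjusted p = 0.00585) and that of Dhcr7 -0.41 (edgeR adjusted p = 0.0554), while without sesaminol replicate 2 both were called higher, at 0.61 and 0.43 (edgeR adjusted p = 0.00279 and 0.0406).

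**Figure D3:**
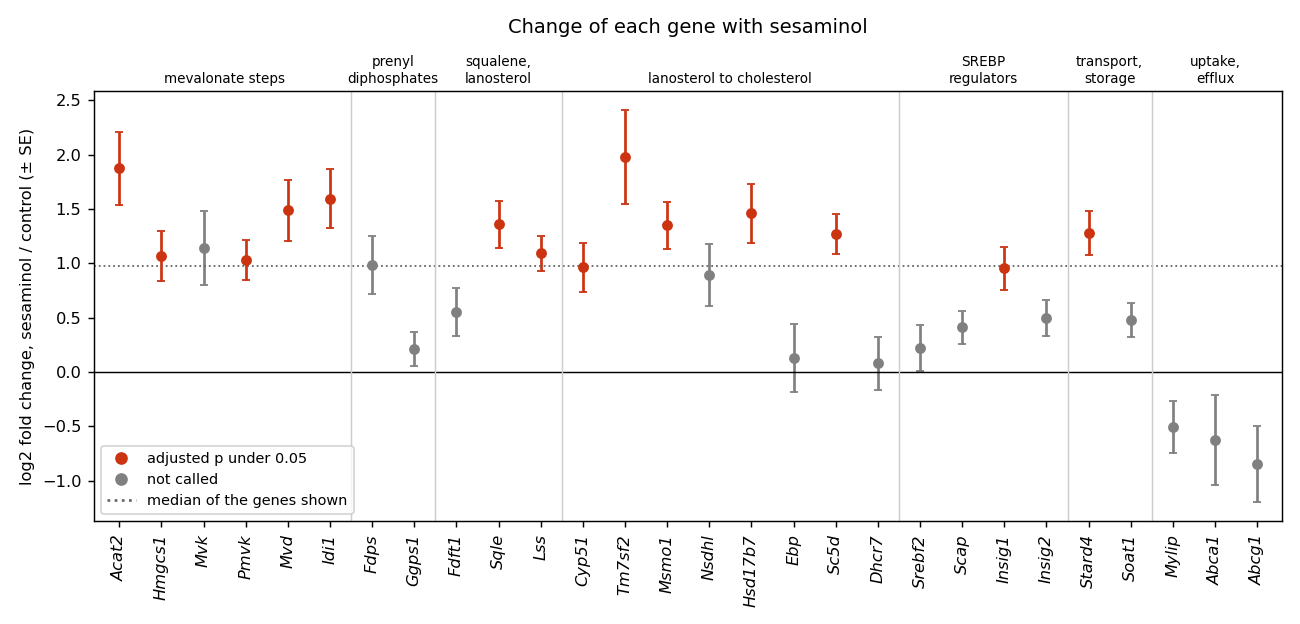
Log2 fold change of sesaminol over control for the 28 genes in pathway order, with the standard error of the fit as bars (2 libraries per group). Red points are the 14 genes called higher, and the dotted line is the median of 0.98.

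Among the regulators, Insig1 rose. Insig1 (ENSMUSG00000045294, chromosome 5, 28071363 to 28078662, GRCm38), the sterol-responsive anchor of SCAP, had 237 and 198 CPM in the controls and 453 and 390 CPM with sesaminol (log2 fold change 0.95 ± 0.20, edgeR adjusted p = 0.0242). Its paralog Insig2, known from liver to be less dependent on SREBP, had 87.9 and 79.5 CPM in the controls and 123 and 113 CPM with sesaminol (log2 fold change 0.50 ± 0.16, edgeR adjusted p = 0.134), and it was called higher without sesaminol replicate 2 (edgeR adjusted p = 0.00407). Both genes had no overlap between groups, and the difference between their fold changes was not tested. Scap had 56.0 and 55.8 CPM in the controls and 75.4 and 73.3 CPM with sesaminol (log2 fold change 0.41 ± 0.15, edgeR adjusted p = 0.196). Srebf2 (ENSMUSG00000022463, chromosome 15, 82147181 to 82205379, GRCm38), the transcription factor itself, had 405 and 434 CPM in the controls and 549.5 and 428 CPM with sesaminol. Its groups overlapped (log2 fold change 0.22 ± 0.21, edgeR adjusted p = 0.691), and without sesaminol replicate 1 the log2 fold change was -0.013. These are levels of mRNA, and the cleavage that activates SREBP-2 was not measured.

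Of the genes that move and store sterol, Stard4 rose. Stard4, a soluble carrier that moves cholesterol between membranes, had 52.6 and 42.3 CPM in the controls and 131 and 99.2 CPM with sesaminol. Its lower sesaminol library was 1.88 times its higher control, and its log2 fold change was 1.03 to 1.48 over the fits that left out a library. Soat1, which esterifies cholesterol for storage in lipid droplets, had 60.8 and 61.6 CPM in the controls and 88.7 and 82.4 CPM with sesaminol. Its libraries lay close together within each group and apart between them, but the rise did not pass (log2 fold change 0.48 ± 0.16, edgeR adjusted p = 0.132), except without sesaminol replicate 2 (edgeR adjusted p = 0.00992).

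The genes of receptor removal and efflux lay on the other side of 0 and did not pass. Mylip (ENSMUSG00000038175, chromosome 13, 45389742 to 45412022, GRCm38) had 23.0 and 26.9 CPM in the controls and 13.5 and 21.5 CPM with sesaminol (log2 fold change -0.50 ± 0.24, edgeR adjusted p = 0.326). Abcg1, an exporter of sterol to mature lipoprotein particles, had 6.46 and 6.94 CPM in the controls and 3.08 and 4.32 CPM with sesaminol (log2 fold change -0.84 ± 0.35, edgeR adjusted p = 0.247). For this pair both sesaminol libraries lay below both controls. Abca1, the exporter to lipid-poor apolipoproteins, had 4.77 and 7.45 CPM in the controls and 2.81 and 5.07 CPM with sesaminol, and its groups overlapped (log2 fold change -0.62 ± 0.41, edgeR adjusted p = 0.521). Abca1 rested on 42 to 136 counts per library. Without sesaminol replicate 2 all 3 were called lower, Mylip by -0.88, Abca1 by -1.13 and Abcg1 by -1.11 in log2 terms (edgeR adjusted p = 0.000482, 0.0201 and 0.0166), and without sesaminol replicate 1 none of them passed.

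The size of the shift differed between the sesaminol libraries. Sesaminol replicate 2 lay below sesaminol replicate 1 in 25 of the 28 genes, with a median log2 ratio of -0.45 over the 28, where 9331 of the 18998 tested genes lay below and the median ratio over tested genes with a count in every library was 0.0065. The 3 exceptions were Mylip, Abca1 and Abcg1, which were lowest in sesaminol replicate 1. The median log2 ratio was -0.91 for the mevalonate steps, -0.85 for the late sterol enzymes and -0.17 for the 4 regulators. The controls also differed in the same sense, by less: control replicate 2 lay below control replicate 1 in 21 of the 28 genes, with a median log2 ratio of -0.16. In each group the library with the higher enzyme sum had the lower levels of Mylip, Abca1 and Abcg1. These are differences between single libraries, with no test.

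**Figure D4:**
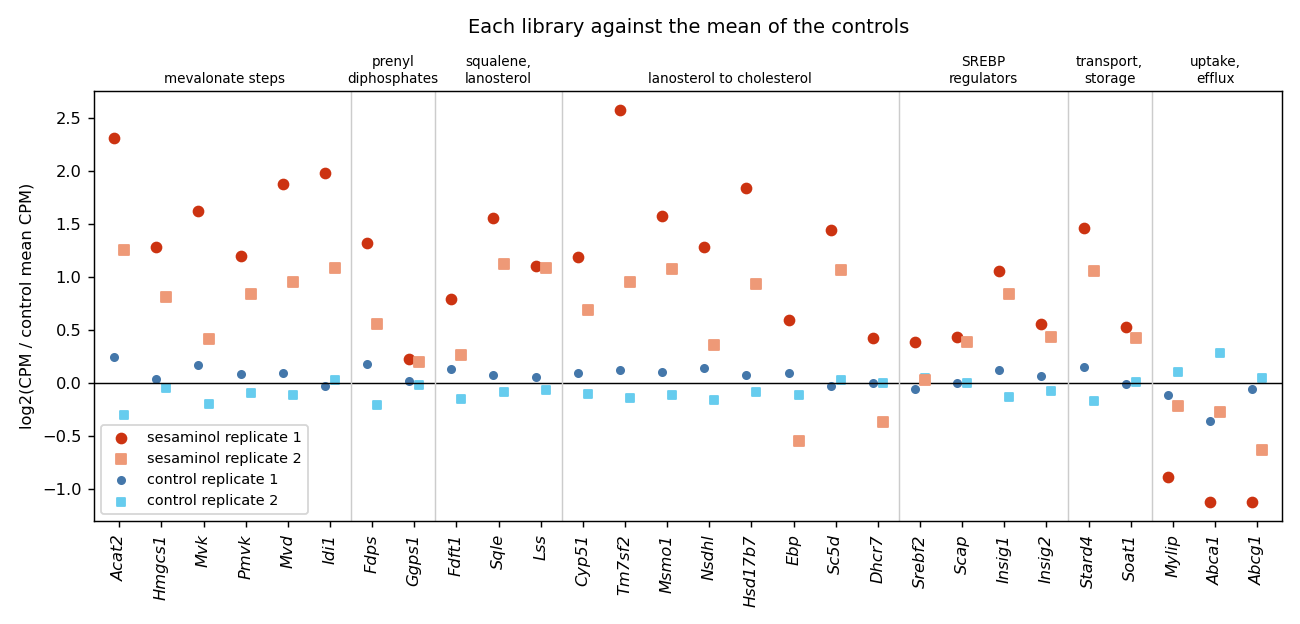
Log2 ratio of each library's CPM to the mean of the 2 controls, for the 28 genes in pathway order. Sesaminol replicate 1 (dark red) lies above sesaminol replicate 2 (light red) for 25 genes and below it for Mylip, Abca1 and Abcg1.

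Per kilobase of annotated exon, the highest mean levels of the 28 transcripts in the controls were those of Hmgcs1 (71.2 CPM per kilobase), Insig1 (70.4), Srebf2 (58.4) and Cyp51 (54.8). The order differed between the sesaminol libraries. In sesaminol replicate 1 the highest were Hmgcs1 (173 CPM per kilobase), Acat2 (153), Insig1 (146) and Cyp51 (125), and in sesaminol replicate 2 Insig1 (126), Hmgcs1 (125), Cyp51 (88.6) and Sqle (79.1). The exporters were the least abundant, Abca1 at 0.589 and 0.380 CPM per kilobase and Abcg1 at 0.918 and 0.507 in controls and sesaminol. Exon lengths join all annotated transcripts of a gene, so these levels are approximate.

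Of 54 tested genes outside the 28, taken from lists set by textbook role, 8 rose and 0 fell, with a median log2 fold change of 0.18, beside the background of 2.72% and 3.24%. Among 10 genes of SREBP activation and sterol-regulated turnover, Rnf145 rose and the other 9 did not pass. Rnf145, a ubiquitin ligase of the endoplasmic reticulum that acts on SCAP, had 59.9 and 61.9 CPM in the controls and 185 and 188 CPM with sesaminol (3.06-fold, edgeR adjusted p = 0.0014). Its libraries were close within each group, and it was called whichever library was left out. Srebf1, which encodes the SREBP forms that act mainly on fatty acid genes, had a log2 fold change of -0.35 ± 0.21, and Ube2g2, a ubiquitin-conjugating enzyme of protein turnover, one of -0.26 ± 0.18 (edgeR adjusted p = 0.462 and 0.523). Srebf1 was called lower without sesaminol replicate 1 (-0.67, edgeR adjusted p = 0.00043) and was -0.10 without sesaminol replicate 2.

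Of 15 genes of lipoprotein receptors and intracellular sterol transport, Lrp8 and Npc2 rose. Lrp8, the apolipoprotein E receptor 2 known for reelin signalling in neurons, had 3.18 and 6.57 CPM in the controls and 20.1 and 23.3 CPM with sesaminol (4.37-fold, edgeR adjusted p = 0.00638), and its log2 fold change was 1.71 to 2.76 over the fits that left out a library. Npc2, which takes cholesterol out of lysosomes, had 293 and 280 CPM in the controls and 657 and 548 CPM with sesaminol (2.10-fold, edgeR adjusted p = 0.0161). The related receptor gene Vldlr had a log2 fold change of 0.69 ± 0.24 and did not pass (edgeR adjusted p = 0.167), but it was called higher without sesaminol replicate 1 and without sesaminol replicate 2 (edgeR adjusted p = 0.00812 and 0.0011).

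Of 8 tested genes of ester and oxysterol metabolism, 4 rose. Ch25h, which makes the oxysterol 25-hydroxycholesterol, had 6.26 and 7.81 CPM in the controls and 36.2 and 22.6 CPM with sesaminol (4.14-fold, edgeR adjusted p = 0.00363). Lipa, the lysosomal lipase that frees cholesterol from its esters, had 40.7 and 41.3 CPM in the controls and 88.4 and 80.6 CPM with sesaminol (2.06-fold, edgeR adjusted p = 0.00649). Hsd3b7, a dehydrogenase of bile acid synthesis from oxysterols, rose 1.81-fold (edgeR adjusted p = 0.0334), and Nceh1, a neutral cholesterol ester hydrolase named after its value was seen, rose 1.62-fold (edgeR adjusted p = 0.0405). Ch25h was called whichever library was left out, as was Lrp8. Ch25h shares 159 exon bases with Gm26902 on the opposite strand, whose count was 48.4% of its own. Hsd3b7 shares 1717 exon bases with AC149222.1 on the same strand and 1729 with 9430064I24Rik on the other, with 172% and 37.6% of its count, so its reads cannot be told apart from theirs. Npc2, Lipa, Hsd3b7 and Rxra were not called when either control was left out (edgeR adjusted p from 0.0601 to 0.633).

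Of 8 tested genes of LXR receptors and LXR targets, Rxra rose and the other 7 did not pass. Rxra, the retinoid X receptor that pairs with LXR and other nuclear receptors, rose 1.62-fold (edgeR adjusted p = 0.0464), and it missed the threshold with DESeq2 size factors, upper quartile scaling or limma-voom (adjusted p = 0.0546, 0.0611 and 0.0533). Abca7 and Smpdl3a had log2 fold changes of 0.46 ± 0.18 and 0.80 ± 0.44 (edgeR adjusted p = 0.198 and 0.414). The log2 fold change of Abca7 was 0.24 without sesaminol replicate 1 and 0.63, called higher, without sesaminol replicate 2. That of Smpdl3a was 1.02, called higher, without sesaminol replicate 1 and 0.43 without sesaminol replicate 2. Of 13 tested genes of the non-sterol isoprenoid branch, which use prenyl diphosphates for ubiquinone, dolichol and protein prenylation, 0 passed, with a median log2 fold change of -0.0024 (1 at an unadjusted p under 0.05). The gene with the smallest p in that branch was Icmt, the methyltransferase of prenylated proteins (0.45 ± 0.16, edgeR adjusted p = 0.171), followed by Pdss1 of ubiquinone synthesis (-0.66 ± 0.32, edgeR adjusted p = 0.333) and Nus1 of dolichol synthesis (0.27 ± 0.16, edgeR adjusted p = 0.444). Without sesaminol replicate 1 Icmt was called higher and Pdss1 lower (0.44 and -0.93, edgeR adjusted p = 0.0318 and 0.0122). Pdss1, Srebf1 and Ube2g2 also share exon bases with the neighbours Abi1, Rai1 and Sumo3 (194, 109 and 166 bases). The counts of these neighbours were 1065%, 39.3% and 48.7% of those of Pdss1, Srebf1 and Ube2g2.

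**Figure D5:**
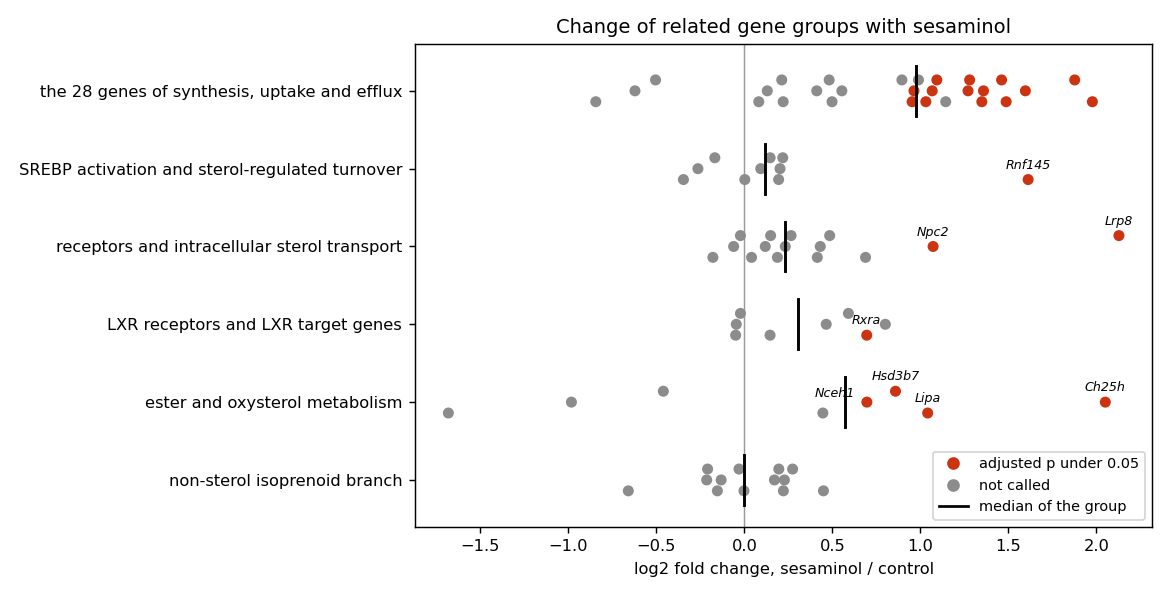
Log2 fold change of sesaminol over control for the 28 genes and for 5 lists of related genes, 1 point per tested gene, with the median of each group as a bar. The 28 genes have a median of 0.98, and single genes such as Lrp8, Ch25h and Rnf145 stand out in lists whose medians run from -0.0024 to 0.57.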

How the data were processed

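Per the labels' protocols, polyadenylated RNA was selected from total RNA of the cells and made into Illumina libraries. The authors deposited a table of raw read counts per gene, as whole numbers that were not normalized. Per the submitters' processing notes, reads were handled with fastp, Picard and featureCounts, among other tools, on GRCm38. How reads were aligned, whether strand was used and how reads over several genes were counted is not given in the sources used here. Even numbers made up 75.8% to 79.6% of the low values (1 to 12) of a library, so pairs may have been counted as separate reads. Every row named a gene.

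Low genes were removed with filterByExpr (minimum count 10, minimum total 15), libraries were scaled by TMM, and groups were tested with edgeR 4.0.16 in R 4.3.3 (glmQLFit, glmQLFTest, all 4 libraries, no covariates, two-sided, Benjamini-Hochberg over 18998 genes, threshold 0.05). A gene is said to have risen or fallen only past that threshold. Standard errors come from the log2 fold change and its F statistic. CPM uses TMM library sizes. Positions, exon lengths and overlaps come from GENCODE M21 (GRCm38), which holds 52489 of 52636 identifiers. An overlapping gene is named where it shared exon bases and its count was at least 20% of the member's, as for 6 of the 28 genes. Neither pair of replicates agreed within sampling noise (chi-square per degree of freedom 4.87 for the controls and 28.4 for sesaminol). The procedure was tested on simulated data. The members, lists, motifs and tests were chosen with earlier results of these data known, and the lists are from textbook knowledge. All 28 members are named, and of each list the genes (at most 3) lowest in adjusted p. Alternatives were other scalings and filters, DESeq2 1.42.0, limma-voom (limma 3.58.1), a replicate block, counts halved or thinned, and each library left out. Figures were drawn with matplotlib 3.10.9. Genes of the pathway beyond the 28 and the lists are not analysed here.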

Additional observations from a re-analysis of the deposited data

How the results depend on the processing

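All 25 positive and 3 negative fold changes of the 28 genes kept their sign under every scaling, filter and tool tried and with counts halved or thinned. Under these settings 13 to 17 of the 28 genes rose and 0 fell. Of all tested genes 2.21% to 3.74% rose and 2.84% to 4.66% fell. The 14 genes that rose were all called again except Tm7sf2 with DESeq2 and with limma-voom. Mvk, Fdps and Nsdhl were also called with DESeq2, without a filter and with the replicate block, and Fdps with library size alone. Vldlr was called without a filter and with the replicate block (adjusted p = 0.0203 and 0.0273). The median of all genes moved by less than 0.1 on the log2 scale under each scaling. Without a filter 928 genes rose and 985 fell, and 1 gene of the related lists fell. The replicate numbers are shared by the groups, but nothing says that they pair the libraries, and deviations of same-numbered libraries correlated at -0.0736 across genes (genes are not independent replicates). With the number as a replicate block 893 genes rose and 982 fell (9.87% in all), and 17 of the 28 rose.

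Leaving out each library in turn moved the counts most. All genes that rose ran from 163 to 1918 and those that fell from 276 to 2724. Of the 28 genes 4 to 22 rose and 0 to 3 fell, of the 19 enzymes 4 to 18 rose and 0 to 1 fell, and of the related lists 3 to 14 genes rose and 0 to 6 fell. For the related lists, the 3 that rose came without control replicate 1 or 2, where 0.786% and 0.847% of all tested genes rose. The 14 that rose and the 6 that fell came without sesaminol replicate 1, where 9.36% of all tested genes rose and 13.3% fell. The 6 that fell are thus not read as an excess over all genes. The median log2 fold change of the 28 genes ran from 0.58 to 1.20, the lower value without sesaminol replicate 1. Without that library Ebp, Dhcr7 and Srebf2 changed sign (-0.59, -0.41 and -0.013), and their highest values, without sesaminol replicate 2, were 0.61, 0.43 and 0.40. The cause was not tested. Depth limits Abca1 and Abcg1 most, which had the fewest counts of the 28 genes.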

Other observations

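AC123738.2 and 4930483K19Rik, noncoding genes that overlap members on the opposite strand, had fold changes close to those of their neighbours. Fold changes of 5830462I19Rik at Scap and AC124732.1 at Idi1, also on the opposite strand, are not given here. AC123738.2, which starts beside Hmgcs1, had 103 and 103 CPM in the controls and 225 and 210 CPM with sesaminol (2.11-fold higher, edgeR adjusted p = 0.00658), where Hmgcs1 was 2.10-fold higher. 4930483K19Rik, beside Lss, had 54.1 and 47.3 CPM in the controls and 112 and 102 CPM with sesaminol (2.11-fold higher, edgeR adjusted p = 0.00671), where Lss was 2.13-fold higher. AC123738.2 and 4930483K19Rik were named after their values were seen. Since the strand setting is not known, reads of each pair cannot be told apart. The sesaminol libraries of AC123738.2 lay 225 to 210 CPM, closer together than those of Hmgcs1 at 795 and 575 CPM.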
